A study of Bos taurus with 8 samples.

Results

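The NDUF genes encode the nuclear-encoded subunits of complex I, the NADH:ubiquinone oxidoreductase of the inner mitochondrial membrane, and a group of its assembly factors. All probes whose platform-annotation symbol begins with NDUF were taken, and each gene was represented by its brightest probe. This gave 41 genes and 62 probes, out of 15215 genes with a symbol on the array. The study compared bovine blastocysts, made by in vitro maturation, fertilization and culture from ovaries of slaughtered animals, that were grown with or without buthionine sulfoximine (BSO), an inhibitor of the first enzyme of glutathione synthesis. The BSO group received 0.4 mM BSO in the second culture step, from day 3 to day 5, and 0.01 mM in the last step, up to day 7. The group labelled Control-Oxid was grown in the same synthetic oviductal fluid with no agent added. At 196 h after fertilization embryos of both groups were pooled by 10, with 4 pools per treatment. On 4 of the 8 dual-colour arrays BSO was in the red dye Cy5 and control in the green dye Cy3, and on the other 4 the dyes were exchanged. No strain, embryo sex or parentage is given by the labels.

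Complex I oxidizes NADH, passes the electrons through a flavin and a chain of iron-sulfur clusters to ubiquinone, and couples this to proton pumping. Its peripheral arm, in the matrix, carries the redox centres, and its membrane arm carries the pumping subunits, which are encoded by mitochondrial DNA. Around a core that is shared with bacteria sit many accessory subunits, needed mostly for assembly and stability. In the mammalian embryo, mitochondrial respiration becomes more prominent as the blastocyst forms, and complex I is a main site at which electrons can escape to oxygen and give superoxide. NDUFAF2, NDUFAF8 and the subunits encoded by mitochondrial DNA are not analysed here.

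Each array gave a log2 ratio of BSO over control per probe, and a value of 1 means a doubling in the BSO embryos. Arrays of opposite dye orientation were matched by the likeness of their values and averaged to 4 replicates, so that a dye effect cancels. The labels do not state this pairing, but it equals the order of the arrays within slides. Per the labels, the arrays of replicates 1 and 2 belong to Slide114 and Slide115, and those of replicates 3 and 4 to Slide25. Nothing in the labels states that pools were of separate cultures, so p-values measure the spread between these pools, which may be technical. In whole embryos, fewer cells of a type and less RNA per cell cannot be told apart. Of 43794 gene probes, 36995 were kept, for 13677 genes. A kept probe exceeded a limit, the 95th percentile of the 153 negative control spots, on at least 4 of the 8 arrays in either treatment. All 62 NDUF probes passed, and 36 of the 41 genes also passed a limit of 2 times that brightness. The blastocyst label was set against marker lists. All 14 trophectoderm markers were measured, and their summed share of the raw signal was 0.139% to 0.318% in the BSO channels and 0.220% to 0.366% in the control channels. Epiblast markers had shares of 0.0226% to 0.0328% and 0.0210% to 0.0290%, and hypoblast markers had shares of 0.0318% to 0.0661% and 0.0439% to 0.0746%, in the same order. The cumulus and granulosa markers were dim, at 1.02 to 2.63 times the limit, with shares of 0.00373% to 0.00571% in the BSO channels and 0.00335% to 0.00500% in the control channels.

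The NDUF genes did not share a direction. Among the genes with the clearest differences more were lower than higher in the BSO embryos, but a few subunits were higher in every replicate. All genes leaned the same way, with 1423 higher and 2030 lower at an unadjusted p under 0.05 in limma. The largest difference in each direction was NDUFB11 at -0.84 and NDUFB5 at 0.59 on the log2 scale. For NDUFB11 this is a ratio 1.79-fold lower. Of the 41 genes, 18 had a mean ratio above 0 and 23 below 0, where 48.7% of all genes were below 0. The median over the genes was -0.015, against 0.0040 over all genes. The median size of the ratio, whatever its sign, was 0.231 for the NDUF genes, 0.103 for all genes and 0.202 for genes past the stricter brightness limit. Only 3 NDUF genes differed by 1.5-fold or more, and 18 lay within 0.2 of 0.

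No probe on the array, and so none for an NDUF gene, passed an adjusted p of 0.05 in limma's test of the 4 replicates against 0. The share called was 0% of probes, the lowest adjusted p over all probes was 0.0514, and 8297 probes, or 22.4%, were at an unadjusted p under 0.05. At that unadjusted level stood 19 of the 41 NDUF genes, or 46.3%, beside 25.2% of all genes. They comprised 7 higher in BSO (17.1%, beside 10.4% of all genes) and 12 lower (29.3%, beside 14.8%). The NDUF genes were brighter than the array as a whole, since 36 of 41 passed the stricter brightness limit, against 6572 of all 13677 genes. Among all genes past that limit the share at an unadjusted p under 0.05 was 34.9%, and among the 36 NDUF genes that passed it the count was 18, or 50%. Of the 41 NDUF genes, 7 had the same positive sign in all 4 replicates and 12 the same negative sign, where 16.9% and 17.8% of all genes did so (34.8% in either direction). The 19 genes at p under 0.05 include 17 of these, 6 higher and 11 lower. Values at this level that miss the adjusted threshold are given below as measured differences, not as established ones.

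**Figure D1:**
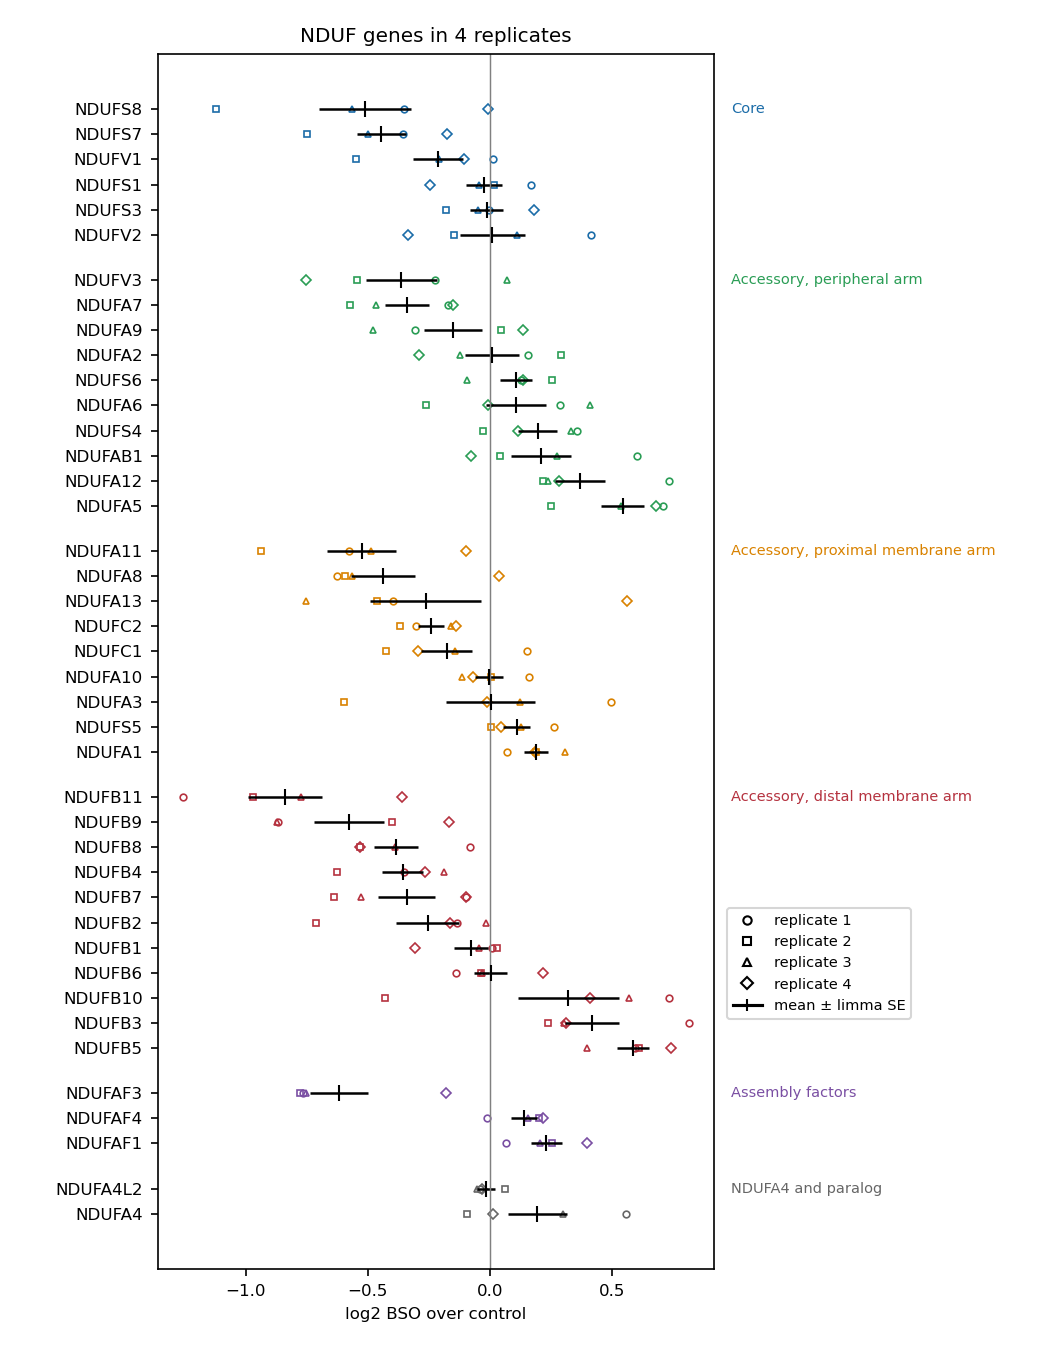
Log2 ratio of BSO over control (horizontal axis) for each of the 41 NDUF genes (rows), grouped by the place of the protein in complex I. Open symbols are the 4 replicates, each the mean of 2 arrays of opposite dye orientation, and black bars are the mean ± limma standard error. NDUFB11 (-0.84) lies farthest to the left and NDUFB5 (0.59) farthest to the right.

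A fit of all 8 arrays, with a dye term and each pair of matched arrays as a replicate block, placed 14 NDUF genes past an adjusted p of 0.05 in limma. It treats the 2 arrays of a pair as correlated measurements, with a consensus correlation of 0.543. Of the 14, 4 were higher (9.76%, beside 5.25% of all genes) and 10 lower (24.4%, beside 7.84%). The higher genes were NDUFB5, NDUFA5, NDUFB3 and NDUFA12, with limma adjusted p-values of 0.00277, 0.00652, 0.0241 and 0.0413. The lower genes were NDUFB11, NDUFAF3, NDUFS7, NDUFB8, NDUFB9, NDUFA7, NDUFB4, NDUFC2, NDUFA11 and NDUFA8, with limma adjusted p-values between 0.00688 for NDUFB11 and 0.0323 for NDUFA8. The calls of the family thus depend on whether the matched arrays are averaged or kept as separate measurements. The block fit applies the same correlation to all probes and counts the 2 arrays of a pair as partly separate values. Where the paired arrays of a gene are more alike than that, its p-value is too small. The 14 calls are therefore not taken as established.

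The core subunits hold the redox centres, and 6 nuclear-encoded ones were analysed. At the brightest probes, none was higher at an unadjusted p under 0.05 and 2 were lower, and the median of the 6 was -0.12. The share of 33.3% is near the 34.9% of all genes past the stricter brightness limit. NDUFS8 and NDUFS7, iron-sulfur subunits close to the ubiquinone site, were the lower ones. NDUFS8 had log2 ratios of -0.35, -1.12, -0.56 and -0.0069 in replicates 1 to 4, with a mean of -0.51 ± 0.19 (limma standard error, n = 4) and a limma adjusted p of 0.210. Replicate 2 was far below the others and replicate 4 was close to 0, and without replicate 2 the mean was -0.31. NDUFS7, which carries the last cluster before ubiquinone, had ratios of -0.36, -0.75, -0.50 and -0.17, with a mean of -0.44 ± 0.10 and a limma adjusted p of 0.108. All 4 values were below 0, but for this probe the 2 dye orientations differed widely. Its mean over the arrays with BSO in Cy5 was -0.94, and with BSO in Cy3 it was 0.052. For it the dye term of the 8-array fit had a limma adjusted p of 9.2e-05. Averaging the orientations cancels a dye effect. A second, dimmer NDUFS7 probe had the same mean of -0.44 and showed it in both orientations, at -0.47 with BSO in Cy5 and -0.42 in Cy3.

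The other 4 core subunits gave means near 0 or mixed signs. NDUFV1, which binds NADH and the flavin, had ratios of 0.011, -0.55, -0.21 and -0.11, with a mean of -0.21 ± 0.10. It was dim, and stood above the negative-control limit in 7 of the 8 BSO channels. NDUFV2, its iron-sulfur partner, had ratios of 0.41, -0.15, 0.11 and -0.34 and a mean of 0.010 ± 0.13. NDUFS1, the largest iron-sulfur subunit of the NADH-oxidizing end, had ratios of 0.17, 0.019, -0.044 and -0.24 and a mean of -0.025 ± 0.075. NDUFS3, a core subunit of the ubiquinone-binding part without a redox centre, had ratios of -0.0034, -0.18, -0.049 and 0.18 and a mean of -0.012 ± 0.067. For these 4 genes the replicates lay on both sides of 0.

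Among the 10 accessory subunits of the peripheral arm, 2 were higher and 1 lower at an unadjusted p under 0.05, and the median was 0.11. The share of 30% lies between the 25.2% of all genes and the 34.9% of genes past the stricter brightness limit. NDUFA5, which sits on the ubiquinone-binding part beside NDUFS3, was the highest. Its ratios were 0.71, 0.25, 0.54 and 0.68, with a mean of 0.54 ± 0.089 and a limma adjusted p of 0.0755. On the raw scale its probe read 6364 to 10937 scanner units in the BSO channels and 4741 to 6736 in the control channels, and the BSO channel was the brighter on 8 of 8 arrays. The 2 ranges overlapped between arrays. NDUFA12, a subunit of the peripheral arm whose paralog NDUFAF2 acts in assembly, had ratios of 0.73, 0.22, 0.24 and 0.28 and a mean of 0.37 ± 0.10 (limma adjusted p = 0.140). Replicate 1 was well above the others, which lay close together. NDUFA7 was the lower one, with ratios of -0.17, -0.57, -0.47 and -0.15 and a mean of -0.34 ± 0.09 (limma adjusted p = 0.130). Its values also differed by dye, at -0.66 with BSO in Cy5 and -0.020 with BSO in Cy3 (dye term, limma adjusted p = 0.00039).

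The remaining 7 accessory subunits of that arm had means between -0.36 and 0.21, and none was at an unadjusted p under 0.05. NDUFV3, a small subunit of the NADH-oxidizing end, was at -0.36, and NDUFA9, which lies next to the ubiquinone channel, was at -0.15. NDUFA2, which has a thioredoxin-like fold, was at 0.0085. NDUFS6, a zinc-binding subunit, and NDUFA6, a protein of the LYR family that docks the mitochondrial acyl carrier protein, were both at 0.11. NDUFS4, whose loss in humans and mice destabilizes the NADH-oxidizing end, was at 0.20. NDUFAB1, the acyl carrier protein itself, was at 0.21.

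The 9 accessory subunits of the proximal membrane arm, next to the joint with the peripheral arm, had a median of -0.18. At an unadjusted p under 0.05, 1 was higher and 3 were lower, or 44.4% in either direction. Beside this stood 25.2% of all genes and 34.9% of those past the stricter brightness limit. NDUFA11, a membrane subunit, had ratios of -0.58, -0.94, -0.49 and -0.10, with a mean of -0.53 ± 0.14 and a limma adjusted p of 0.133. NDUFA8, an intermembrane-space subunit with paired cysteine motifs, had a mean of -0.44 ± 0.13 and a limma adjusted p of 0.154, and 1 of its 4 replicates was above 0. NDUFC2 had ratios of -0.30, -0.37, -0.16 and -0.14, with a mean of -0.24 ± 0.054 and a limma adjusted p of 0.107. The difference was small but its 4 values were all below 0. NDUFA1, a small single-pass membrane subunit, was the higher one, with ratios of 0.070, 0.19, 0.31 and 0.19 and a mean of 0.19 ± 0.050 (limma adjusted p = 0.132). The other 5 were NDUFA13, also known as GRIM19 for its role in cell death, at -0.26, NDUFC1 at -0.18, NDUFA10, related to nucleoside kinases, at -0.0032, NDUFA3 at 0.0027 and NDUFS5, another intermembrane-space subunit, at 0.11.

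The 11 accessory subunits of the distal membrane arm, the NDUFB proteins, held the widest span of the family, from -0.84 to 0.59. Their median was -0.26. At an unadjusted p under 0.05, 2 were higher and 5 lower, so that 4 did not reach that level. The share of 63.6% stands beside 25.2% of all genes and 34.9% of those past the stricter brightness limit. Differences between the arms, or from all genes, were not tested. NDUFB11, a single-pass membrane subunit, had ratios of -1.26, -0.97, -0.77 and -0.36, with a mean of -0.84 ± 0.15 and a limma adjusted p of 0.0862. Its probe read 335 to 993 scanner units in the BSO channels and 513 to 1982 in the control channels, and the BSO channel was the dimmer on 8 of 8 arrays. NDUFB9, an LYR protein that binds an acyl carrier protein, had ratios of -0.87, -0.40, -0.87 and -0.17, with a mean of -0.58 ± 0.14 and a limma adjusted p of 0.120. In raw units it read 912 to 2136 in BSO and 1107 to 4096 in control, with BSO the dimmer on 7 of 8 arrays. Raw values are not corrected for background or dye, and after correction its ratio was below 0 on every array. Replicate 4 was the closest to 0 for both genes.

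NDUFB8 had ratios of -0.082, -0.53, -0.39 and -0.53 and a mean of -0.38 ± 0.090 (limma adjusted p = 0.112). Unlike NDUFB11 and NDUFB9, it was closest to 0 in replicate 1. NDUFB8 is known as a subunit that is lost when complex I is not assembled and is often used as a protein marker of the complex. NDUFB4 had ratios of -0.35, -0.63, -0.19 and -0.26 and a mean of -0.36 ± 0.082 (limma adjusted p = 0.110). NDUFB7, on the intermembrane-space face, had ratios of -0.097, -0.64, -0.53 and -0.098 and a mean of -0.34 ± 0.12 (limma adjusted p = 0.191). Its probe was dim, at 1.84 times the negative-control limit. Each of these 3 genes was below 0 in all 4 replicates.

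In the same arm, NDUFB5 had the smallest p-value of the family. Its ratios were 0.60, 0.61, 0.40 and 0.74, with a mean of 0.59 ± 0.065 and a limma adjusted p of 0.0573. In raw units it read 8002 to 9507 in the BSO channels and 5190 to 6747 in the control channels, and these ranges did not overlap. NDUFB3 had ratios of 0.81, 0.24, 0.30 and 0.31, with a mean of 0.42 ± 0.11 and a limma adjusted p of 0.131. Its raw values were 2544 to 4148 in BSO and 1926 to 2850 in control, with BSO the brighter on 8 of 8 arrays. Replicate 1 again stood above the rest. NDUFB5 and NDUFB3, both membrane subunits, thus lay on the other side of 0 from NDUFB11 within one structural group. The remaining NDUFB genes had means of -0.26 for NDUFB2, -0.078 for NDUFB1, 0.0028 for NDUFB6 and 0.32 for NDUFB10.

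**Figure D2:**
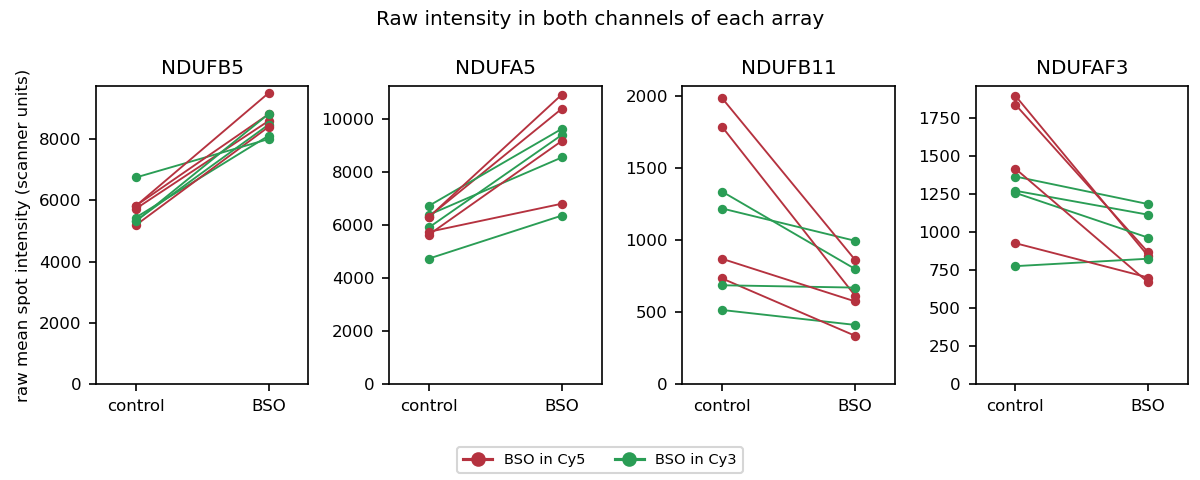
Raw mean spot intensity in scanner units (vertical axes from 0) in the control and the BSO channel of each of the 8 arrays for NDUFB5, NDUFA5, NDUFB11 and NDUFAF3. Each line joins the channels of one array, coloured by the dye that BSO was in. For NDUFB5 the BSO channels (8002 to 9507) lie above all control channels (5190 to 6747), and for NDUFB11 each line runs downward.

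Of the assembly factors with an NDUFAF symbol in the annotation, 3 were measured, and they did not share a direction. NDUFAF3, which works with NDUFAF4 early in assembly of the ubiquinone-binding part, had ratios of -0.77, -0.78, -0.75 and -0.18. Its mean was -0.62 ± 0.12, with a limma adjusted p of 0.0912. Its raw values were 669 to 1184 in the BSO channels and 776 to 1898 in the control channels. BSO was the dimmer on 7 of 8 arrays in these uncorrected values, and the corrected ratio was below 0 on every array. NDUFAF4, its partner, was at 0.14, and 1 of its 4 replicates was below 0. NDUFAF1, which acts in the assembly of the membrane arm, had ratios of 0.066, 0.26, 0.20 and 0.40 and a mean of 0.23 ± 0.063 (limma adjusted p = 0.137). It was dim, at 1.97 times the negative-control limit, and missed the stricter limit. Other NDUFAF assembly factors stood on the array under older symbols and were therefore outside the rule. Of these, NDUFAF5, which hydroxylates an arginine of NDUFS7, had ratios of 0.32, 0.68, 0.18 and 0.29 and a mean of 0.37 ± 0.092 (limma adjusted p = 0.121). Of the 13 listed assembly factors without an NDUF symbol, 8 were measured, with a median of -0.00045. At an unadjusted p under 0.05, 0 of them were higher and 1 was lower, or 12.5%, beside 25.2% of all genes. That was FOXRED1, a flavoprotein needed for complex I assembly, with ratios of -0.26, -0.42, -0.20 and -0.23 and a mean of -0.28 ± 0.049 (limma adjusted p = 0.0842). It too was dim, at 1.55 times the limit.

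NDUFA4 was first described as a complex I subunit and is now counted with complex IV. It was at 0.19, and its paralog NDUFA4L2, which hypoxia induces in human cells, was at -0.015. NDUFA4L2 was the dimmest of the family relative to the negative controls, at 1.06 times the limit, and stood above the limit in 5 of 8 BSO channels and 6 of 8 control channels, so its ratio lies close to the limit of measurement. Apart from it and NDUFV1, the other 39 NDUF genes were above the limit in every channel. The brightest reading of any member was 77.8% of its array's highest spot, for NDUFB6.

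For 25 of the 41 genes 1 probe carried the symbol, and for 16 there were several. All probes of a gene had the same sign in 10 of the 16 and differed in 6. Among the 8 of these genes at an unadjusted p under 0.05, the probes shared a sign in 6. The closest was NDUFB9, whose 2 probes were both at -0.58. The 3 NDUFA11 probes were at -0.53, -0.26 and -0.32, and the 2 NDUFA7 probes at -0.34 and -0.25. NDUFA5 was at 0.54 and 0.16, and NDUFA8 at -0.44 and -0.11, in each case with the smaller value from the dimmer probe. The second NDUFS8 probe read -0.047, but at 1.07 times the negative-control limit. The probes of NDUFA1 had opposite signs, at 0.19 and -0.13, and both were bright (56.6 and 21.5 times the limit), so the direction given above for NDUFA1 holds for its brighter probe alone. Of the 4 NDUFS7 probes, 3 were below 0 (-0.44, -0.44 and -0.18) and 1 at 0.041. NDUFB6 was at 0.0028 by its brighter probe and -0.25 ± 0.074 by its other, which was below 0 in all 4 replicates (limma adjusted p = 0.152). The brightest NDUFS1 probe was at -0.025, but its other probes were at 0.13 ± 0.034 and 0.35 ± 0.10, both above 0 in all 4 replicates (limma adjusted p-values of 0.129 and 0.144). These 3 other probes were at an unadjusted p under 0.05, so for NDUFB6 and NDUFS1 the choice of probe decides whether the gene is counted at that level. The first of these NDUFS1 probes was at 20.4 times the limit and the brightest at 21.5. Which transcripts or exons these probes read is not given by the annotation used here.

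**Figure D3:**
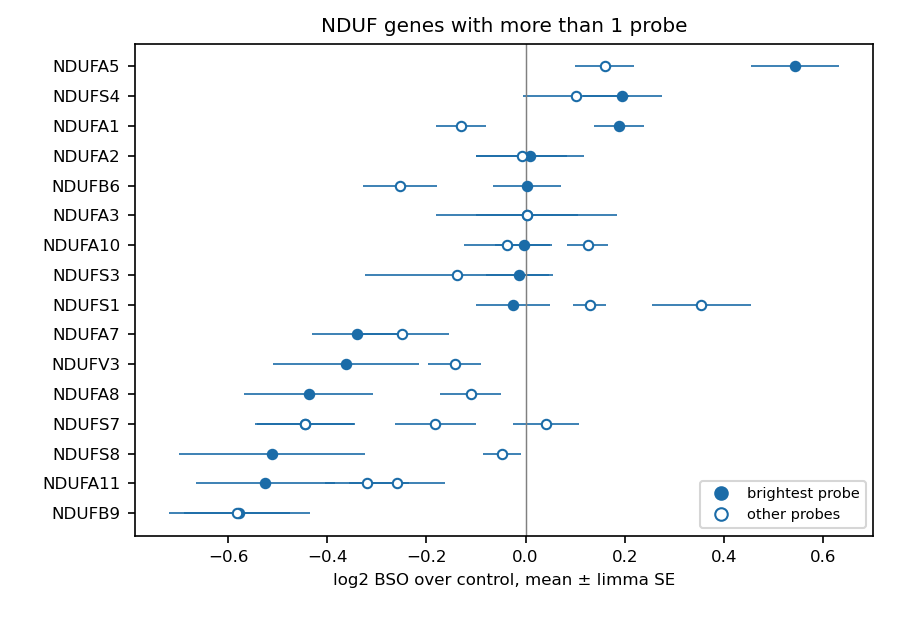
Log2 ratio of BSO over control, as the mean of 4 replicates ± limma standard error (horizontal axis), for every probe of the 16 NDUF genes with more than 1 probe. Filled circles are the brightest probe, which stands for the gene elsewhere, and open circles the others. The 2 probes of NDUFB9 coincide at -0.58, and those of NDUFA1 lie on opposite sides of 0 (0.19 and -0.13).

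The dye had a measurable part in single arrays. In the 8-array fit the dye term passed an adjusted p of 0.05 in limma for 17 NDUF genes, or 41.5%, beside 38.5% of all genes. The family median was -0.22 over the 4 arrays with BSO in Cy5 and 0.052 over the 4 with BSO in Cy3, and 28 of the 41 genes had the lower value with BSO in Cy5. The 2 orientations gave the same sign for 29 genes and opposite signs for 12. Of the 19 genes at an unadjusted p under 0.05, 18 had the same sign in both orientations, and the exception was NDUFS7. The same sign did not mean a like size. NDUFA7 was at -0.66 with BSO in Cy5 and only -0.020 in Cy3, NDUFA8 at -0.71 and -0.16, and NDUFB8 at -0.57 and -0.20. NDUFB11 was at -0.91 with BSO in Cy5 and -0.76 in Cy3, NDUFB9 at -0.51 and -0.65, and NDUFAF3 at -0.73 and -0.51. NDUFB3 was at 0.42 and 0.41, whereas NDUFB5 was at 0.73 and 0.44, and NDUFA5 at 0.69 and 0.39. Across the 41 genes the values of the 2 orientations correlated with a Pearson r of 0.723, where r was 0.303 across all genes. The 41 genes share the arrays and are not independent replicates. They were also brighter, at a median of 15.3 times the negative-control limit against 1.68 for all genes. An r across equally bright genes was not computed.

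**Figure D4:**
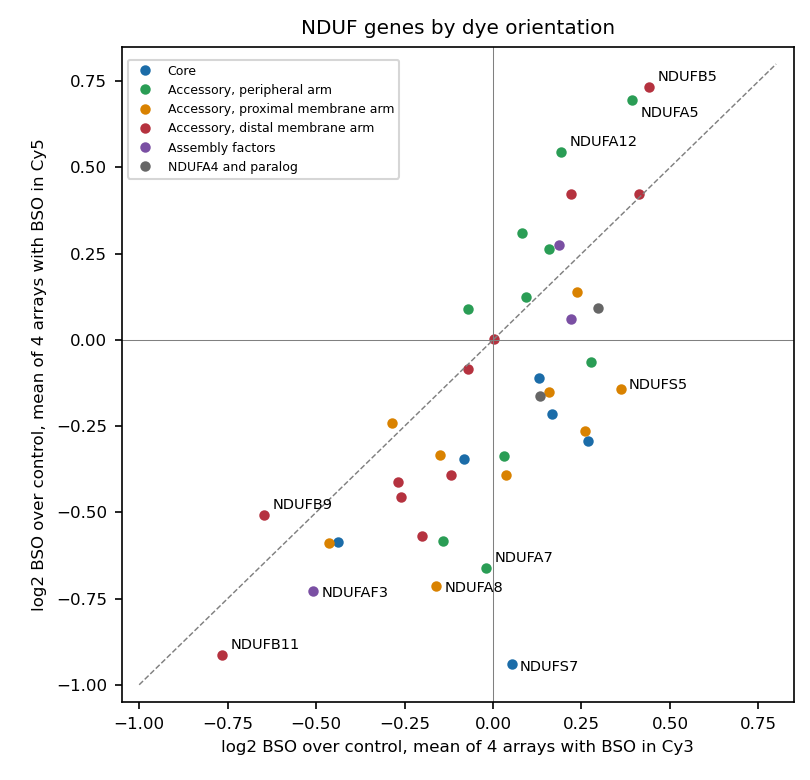
Mean log2 ratio of BSO over control over the 4 arrays with BSO in Cy5 (vertical axis) against the mean over the 4 arrays with BSO in Cy3 (horizontal axis), 1 point per NDUF gene, coloured by its place in the complex. The dashed line marks equal values. NDUFB11 (-0.91 and -0.76) and NDUFB5 (0.73 and 0.44) lie far out in both, and NDUFS7 (-0.94 and 0.052) in one.

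The slides form a batch that holds both treatments. Within Slide114 and Slide115 NDUFB11 was at -1.11 and within Slide25 at -0.57, and NDUFAF3 was at -0.77 and -0.47. NDUFB5 was at 0.60 and 0.57, and NDUFA5 at 0.48 and 0.61. The difference between the slide sets was at an unadjusted p under 0.05 in limma for 1 of the 41 genes, NDUFA2, beside 7.87% of all genes. Over all probes, 0 passed an adjusted p of 0.05 for that difference in limma. In 4 of the 41 genes, NDUFA2 among them, both replicates of one slide set lay above 0 and both of the other below it, where 7.97% of all genes did so. Replicate 2 gave the lowest value for 21 of the 41 genes, where it did so for 28.6% of all genes, and replicate 1 gave the highest value for 16, where it did so for 25.5%. The family median was 0.0074, -0.18, -0.049 and -0.031 in replicates 1 to 4. Of the 12 genes lower at an unadjusted p under 0.05, 9 had their highest value in replicate 4. The same count over all lower genes was not made, so this may hold for the arrays as a whole. By Dixon's ratio 1 replicate stood apart from the other 3 in 4 of the 41 genes, NDUFAF3, NDUFA8, NDUFA12 and NDUFB3, where 5.2% of all genes had such a replicate. Across the 41 genes Pearson's r between replicates was 0.393 to 0.873, and across all genes it was 0.0690 to 0.548. All genes were dimmer as a set, and here too no r across equally bright genes was computed.

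The deposited log2 values of the same arrays, averaged to the same replicates, gave nearly the same ratios for the family. Over the 41 genes the values here and the deposited ones correlated with a Pearson r of 0.999, with a largest gap of 0.046, and 39 had the same sign. In a limma fit of the deposited values, 8 NDUF genes were higher (beside 13.8% of all genes) and 12 lower (beside 14%) at an unadjusted p under 0.05. They included the 19 named above, in the same direction. In that fit 1 NDUF gene passed an adjusted p of 0.05, where 0.629% of all genes did so. It was NDUFB5, at 0.58 with a limma adjusted p of 0.0484.

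The family was then set beside other genes of the respiratory chain. Of 67 listed genes of complexes II to V, 61 were measured, with a median of -0.058 and a range of -0.76 to 0.45. At an unadjusted p under 0.05, 5 were higher and 14 lower, or 31.1% in either direction, and 0 passed the adjusted threshold in limma. That share lies near those of all genes (25.2%) and of genes past the stricter brightness limit (34.9%). The difference between complex I and these genes was not tested. The lower genes of complexes II to V included SURF1, an assembly factor of cytochrome c oxidase, at -0.76 ± 0.13, and COX4I1, a subunit of that enzyme, at -0.62 ± 0.053 (limma adjusted p-values of 0.0784 and 0.0514). SDHA, the flavin subunit of complex II, was at -0.63 ± 0.19 (limma adjusted p = 0.164). SDHD, the membrane anchor of complex II, lay in the other direction at 0.41 ± 0.075 (limma adjusted p = 0.0862), and ATP5PB, a stalk subunit of ATP synthase, at 0.45 ± 0.15 (limma adjusted p = 0.178). Subunits of one complex thus lay on both sides of 0 outside complex I as well. Of 14 listed regulators of mitochondrial biogenesis 13 were measured, with a median of 0.12, and 4 were higher and 3 lower at an unadjusted p under 0.05, beside 10.4% and 14.8% of all genes. PPRC1, a coactivator of nuclear genes for mitochondrial proteins, was at -0.52 ± 0.044, while TFAM, which packages and transcribes mitochondrial DNA, was at 0.34 ± 0.064 (limma adjusted p-values of 0.0514 and 0.0894). TFAM was dim, at 1.81 times the negative-control limit.

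**Figure D5:**
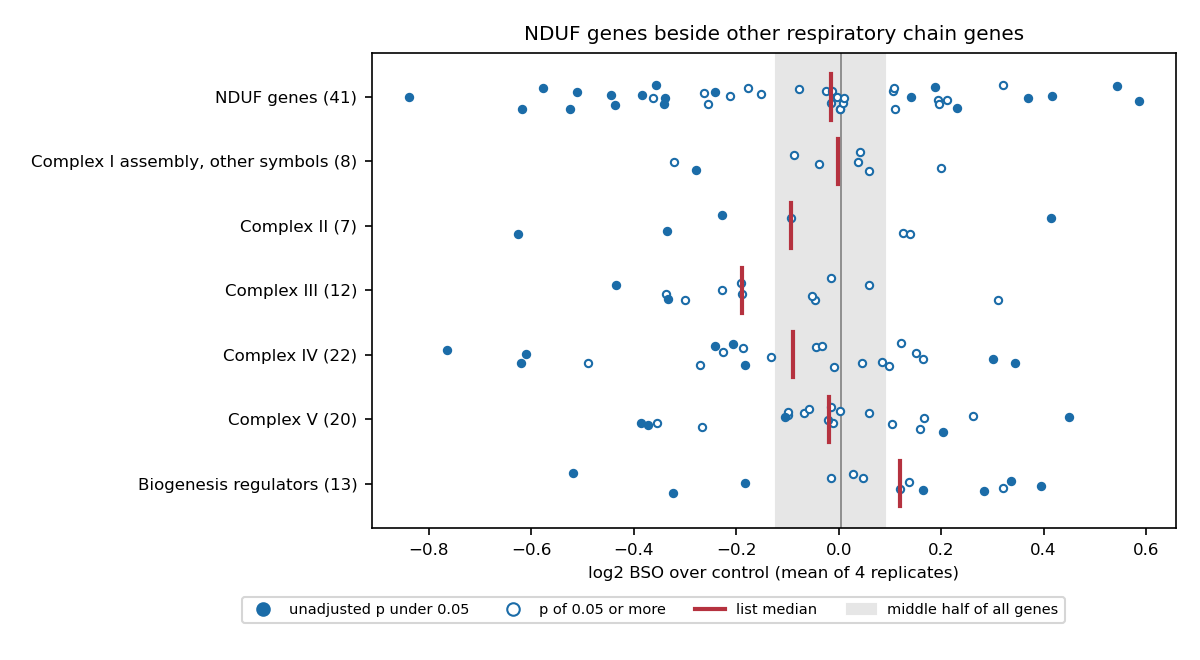
Mean log2 ratio of BSO over control (horizontal axis) for the NDUF genes and for lists of other respiratory chain and mitochondrial genes, 1 point per gene, with the number of genes in parentheses. Filled points are at an unadjusted p under 0.05, red bars are list medians, and the grey band spans the middle part of all genes from the first to the last quartile limit. The NDUF genes spread from -0.84 to 0.59 about a median of -0.015.

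Markers of the trophectoderm, the outer layer of the blastocyst, had a median of -0.24. Of the 14, 1 was higher and 6 were lower at an unadjusted p under 0.05, beside 10.4% and 14.8% of all genes. The means of 4 lay above 0 and of 10 below it. KRT19, a keratin of that layer, was at -1.21 ± 0.21, and IFNT, the interferon that signals pregnancy in ruminants, at -1.12 ± 0.26 (limma adjusted p-values of 0.0823 and 0.111). ELF5, the higher one, was at 0.15 ± 0.046 (limma adjusted p = 0.160), and was dim at 1.43 times the limit. Of 8 epiblast markers 1 was higher and 4 lower, and of 7 hypoblast markers 0 were higher and 3 lower. Their part in the ratios of the NDUF genes was not tested. The summed raw signal of the NDUF genes was 0.341% to 0.458% of a channel's total in the BSO channels and 0.368% to 0.469% in the control channels, so the 2 ranges overlapped.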

How the data were processed

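Per the file headers, the scanner output held raw mean intensity values of each spot and its local background. Per the submitters' processing notes limma was used. The deposited log2 table's background correction and normalization, and the image software, are not given in the sources used here. Compared with the scanner ratios, it held log2 BSO over control on all 8 arrays, with medians of 0.0011 to 0.013 and correlations of 0.889 to 0.989.

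The scanner values were corrected and normalized with limma 3.58.1 in R 4.3.3 (normexp, offset 50, loess with control spots at weight 0). Arrays of opposite orientation were matched by the highest summed correlation of their deviations from the orientation means. Of 24 matchings the best gave 2.88 and the second 1.38, with pair correlations of 0.626 to 0.821. Averages were tested against 0 by limma's lmFit and eBayes, and p-values were adjusted over 36995 probes after Benjamini and Hochberg. The code was tested on simulated data. The number of arrays limits precision.

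Symbols come from the platform annotation, which can be old, updated through RefSeq names (ARS-UCD2.0, names only). No genome build is named, so no coordinates are given. Replicate values are given for core subunits and for members at an unadjusted p under 0.05 with 1 sign in all 4 replicates. Other members are given by their mean, apart from the flagged results. A non-member is named at the same level and sign rule, at most 4 per list. The members and lists were chosen with earlier results of these data known. Alternatives were background correction, normalization, brightness filter, deposited values, replicate block, array weights, slide sets, dye orientation, probe choice and each replicate left out.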

Additional observations from a re-analysis of the deposited data

Results flagged for a closer look

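In 4 of the 41 NDUF genes, 1 of the 4 replicates lay apart from the other 3 by Dixon's ratio at its 95% critical value. Chance alone sets about 1 in 20 such groups apart, and 5.2% of all genes were. In NDUFAF3 replicate 4 was at -0.18, against -0.78 to -0.75 in the others. In NDUFA8 replicate 4 was at 0.037, against -0.63 to -0.57. In NDUFA12 replicate 1 was at 0.73, against 0.22 to 0.28. In NDUFB3 replicate 1 was at 0.81, against 0.24 to 0.31.

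In another 4 genes both replicates of Slide114 and Slide115 lay above 0 and both of Slide25 below it, where 7.97% of all genes had slide sets of opposed sign. The difference of the slide sets was 0.20 for NDUFB1 (limma adjusted p = 0.822) and 0.24 for NDUFS1 (limma adjusted p = 0.766). It was 0.17 for NDUFA10 (limma adjusted p = 0.787) and 0.43 for NDUFA2 (limma adjusted p = 0.714). None passed the adjusted threshold, and the lowest adjusted p over all probes was 0.714.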

How the results depend on the processing

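No probe passed an adjusted p of 0.05 in the main limma test, with median centring, with slide set as a block, within either slide set, with BSO in Cy3 alone or with any replicate left out. The count was 468 without background correction, 91 without the brightness filter, 274 with the stricter one, 220 with the deposited values, 356 with array weights, 7668 on the arrays with BSO in Cy5 alone and 3948 (1408 higher, 2540 lower) with each matched pair as a replicate block. The block takes the 8 arrays as correlated pairs, so it has more values per probe, and the pairing comes from the data. Of NDUF genes, NDUFB5 passed without background correction (limma adjusted p = 0.0484), with the stricter filter (0.0476) and with the deposited values (0.0484), and NDUFB11 with the stricter filter (0.0472). The arrays with BSO in Cy5 alone gave 4 higher and 10 lower NDUF genes, beside 3111 higher and 4557 lower of the 36995 kept probes. The latter are probes and not genes, and the share of all genes was not computed at that level. At an unadjusted p under 0.05 in limma, 6 NDUF genes were higher and 21 lower there. Of all 13677 genes, 2437 were higher and 2964 lower. On those arrays BSO was always in the same dye, so dye and treatment cannot be told apart. These counts therefore include any dye effect.

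At an unadjusted p under 0.05, 8297 probes became 3866 with the stricter filter, which tests fewer probes, 5277 on Slide114 and Slide115 alone and 14547 with BSO in Cy5 alone. With 1 replicate left out they were 5739 to 7764. The 19 NDUF genes became 10 on Slide114 and Slide115 alone, which hold 2 replicates, and 16 to 19 with 1 replicate left out. All genes fell as well on Slide114 and Slide115 alone, from 1423 higher and 2030 lower to 814 and 1456. With 1 replicate left out, 1019 to 1487 of all genes were higher and 1482 to 1843 lower. The family median of -0.015 was -0.097 on Slide25 alone, -0.22 with BSO in Cy5 alone, 0.052 with BSO in Cy3 alone and -0.10 to -0.0096 with 1 replicate left out, the lowest without replicate 1. Of the 19 genes, NDUFS7 alone turned sign under a setting run here, to 0.052 with BSO in Cy3 alone. Its dye term in the 8-array fit had a limma adjusted p of 9.2e-05, and the cause was not tested further. Probe choice was run only as the mean over all kept probes of a gene, which turned 0 of the 19. Single dimmer probes were not among the settings, and for NDUFA1 and NDUFS7 a dimmer probe lay on the other side of 0 (-0.13 and 0.041). Median centring moved the share of higher genes among those at an unadjusted p under 0.05 from 41.2% to 49.0% over all genes, and left the NDUF genes at 7 higher and 12 lower. The 5 genes that missed the stricter limit, NDUFV1, NDUFA4L2, NDUFA10, NDUFS6 and NDUFAF1, are limited by signal over background. Of these, NDUFAF1 is among the 19 genes at an unadjusted p under 0.05.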
